A study of Mus musculus with 4 samples.

Results

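Wnt signalling was examined through 52 genes for its ligands, Frizzled receptors, co-receptors, secreted antagonists, R-spondins and intracellular mediators, out of 18920 genes measured. The members were taken by symbol: every gene named Wnt, Fzd, Sfrp or Dkk followed by a digit, and Lrp5, Lrp6, Ror1, Ror2, Axin1, Axin2, Lef1, Tcf7l1, Tcf7l2, Ctnnb1, Rspo1, Rspo2, Rspo3, Lgr4 and Lgr5. Tcf7 also belongs to the rule and was not analysed here. Of the members 19 are Wnt ligands, 10 Frizzled receptors, 4 co-receptors, 8 secreted antagonists, 5 R-spondins or their receptors and 6 intracellular mediators. Wnt4 had 2 features (probe sets), and the one with the higher mean over the arrays was kept.

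RNA came from retinal cells of BAC-Crx-EGFP mice on a 129Sv/Ev background at the embryonic stage E17.5, sorted into 2 EGFP-positive and 2 EGFP-negative samples, with 1 array each. Both fractions carry the transgene, in which a long genomic fragment places EGFP under the regulatory sequences of Crx, a homeodomain factor that drives photoreceptor differentiation. The positive fraction therefore holds cells in which the transgene is active, and the negative fraction retinal cells sorted as EGFP-negative. The labels do not say whether the replicates are separate litters or sorts, so the spread behind the p-values may be technical rather than that between animals.

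In the canonical branch of the pathway, a Wnt protein joins a Frizzled receptor to the co-receptor Lrp5 or Lrp6. Beta-catenin, encoded by Ctnnb1, then escapes the Axin-containing destruction complex and acts on target genes with TCF/LEF factors. R-spondins bind Lgr receptors and keep Frizzled receptors at the cell surface, while Sfrp proteins bind Wnts and Dkk1 blocks Lrp6. In the eye, beta-catenin signalling is known for its part in the ciliary margin and the pigment epithelium, and Fzd5 for its part in neural retinal progenitors.

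The deposited values are intensities normalised by RMA. Crx, the check of the sort, read 3628.7 and 4758.8 in EGFP-positive samples, against 292.2 and 370.1 in EGFP-negative ones (3.66 ± 0.19 as log2 difference and SE, 2 arrays per fraction, limma adjusted p = 0.00596). Its call was lost without negative replicate 1 (limma adjusted p = 0.107) or negative replicate 2 (adjusted p = 0.115), fits in which no feature was called. Of the photoreceptor precursor markers 7 of 7 had no overlap between the fractions, all higher in the positive one, with summed intensities of 21142 and 25378 in EGFP-positive samples, against 3754 and 3738 in EGFP-negative ones. Of the progenitor markers 8 of 9 had a difference below 0, with sums of 23157 and 16062 in EGFP-positive samples, against 32653 and 30279 in EGFP-negative ones. Amacrine and horizontal cell markers summed to 6278 and 8245 in EGFP-positive samples, against 4494 and 4267 in EGFP-negative ones. Ganglion cell markers were higher in replicate 2 of both fractions, at 3834 and 6879 in EGFP-positive samples, against 3090 and 7905 in EGFP-negative ones. Endothelial markers summed to 3986 and 1936 in EGFP-positive samples, against 5688 and 3646 in EGFP-negative ones, and astrocyte markers to 1604 and 1034 in EGFP-positive samples, against 2300 and 1824 in EGFP-negative ones. The endothelial sums overlapped between the fractions and the astrocyte sums did not, and both were lower in replicate 2 of each fraction. Kdr made up most of each endothelial sum, at 3171.2 and 1107.0 in EGFP-positive samples, against 4888.5 and 2883.9 in EGFP-negative ones. Slc1a3 was the largest astrocyte reading in every sample, at 781.9 and 384.0 in EGFP-positive samples, against 1473.6 and 1193.1 in EGFP-negative ones. The median log2 difference was 0 over the endothelial list and -0.01 over the astrocyte list. The part of these lists in the member differences was not tested. Pigment epithelium markers summed to 919 and 857 in EGFP-positive samples, against 1211 and 846 in EGFP-negative ones, with a median log2 difference of 0.01. Of these markers, Rlbp1 read 227.9 and 114.7 in EGFP-positive samples, against 474.8 and 189.9 in EGFP-negative ones. Microglial markers summed to 842 and 885 in EGFP-positive samples, against 924 and 837 in EGFP-negative ones. The sums of the lens markers ranged from 853 to 876 in EGFP-positive and from 865 to 866 in EGFP-negative samples, and those of the mesenchyme markers from 908 to 925 in EGFP-positive and from 918 to 951 in EGFP-negative samples. RMA values are never 0, so no marker could be listed as absent. In sorted bulk samples, fewer cells of a type and less RNA per cell cannot be told apart.

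No member was called by limma at an adjusted p under 0.05, in a comparison that did not use the replicate numbers. It called 0.82% of all features as higher in EGFP-positive cells and 0.143% as lower. At an unadjusted p under 0.05, 3 of the 52 members were higher and 9 lower, or 5.77% and 17.3%, beside 9.34% and 9.83% of all features. The arrays of the fractions did not overlap for 6 members that were higher (11.5%, beside 22.3% of all features) and 21 that were lower (40.4%, beside 25.3%). The median log2 difference was -0.10 over the members and -0.01 over all features, and the members ranged from -1.01 for Fzd5 to 1.44 for Rspo2. The smallest adjusted p was 0.0516, for Sfrp1. Calls depended on the arrays used, over all features as for the members. A call lost in a fit where no feature was called is not particular to that gene. Without positive replicate 1, limma called 1 member higher (Rspo2) and 4 lower (Sfrp1, Dkk3, Fzd5 and Tcf7l2), beside 2.97% and 3.4% of all features. Without positive replicate 2 it called Rspo2 alone, beside 0.655% of all features higher and 0.0535% lower. Without negative replicate 1 or negative replicate 2 it called no member and no feature.

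**Figure D1:**
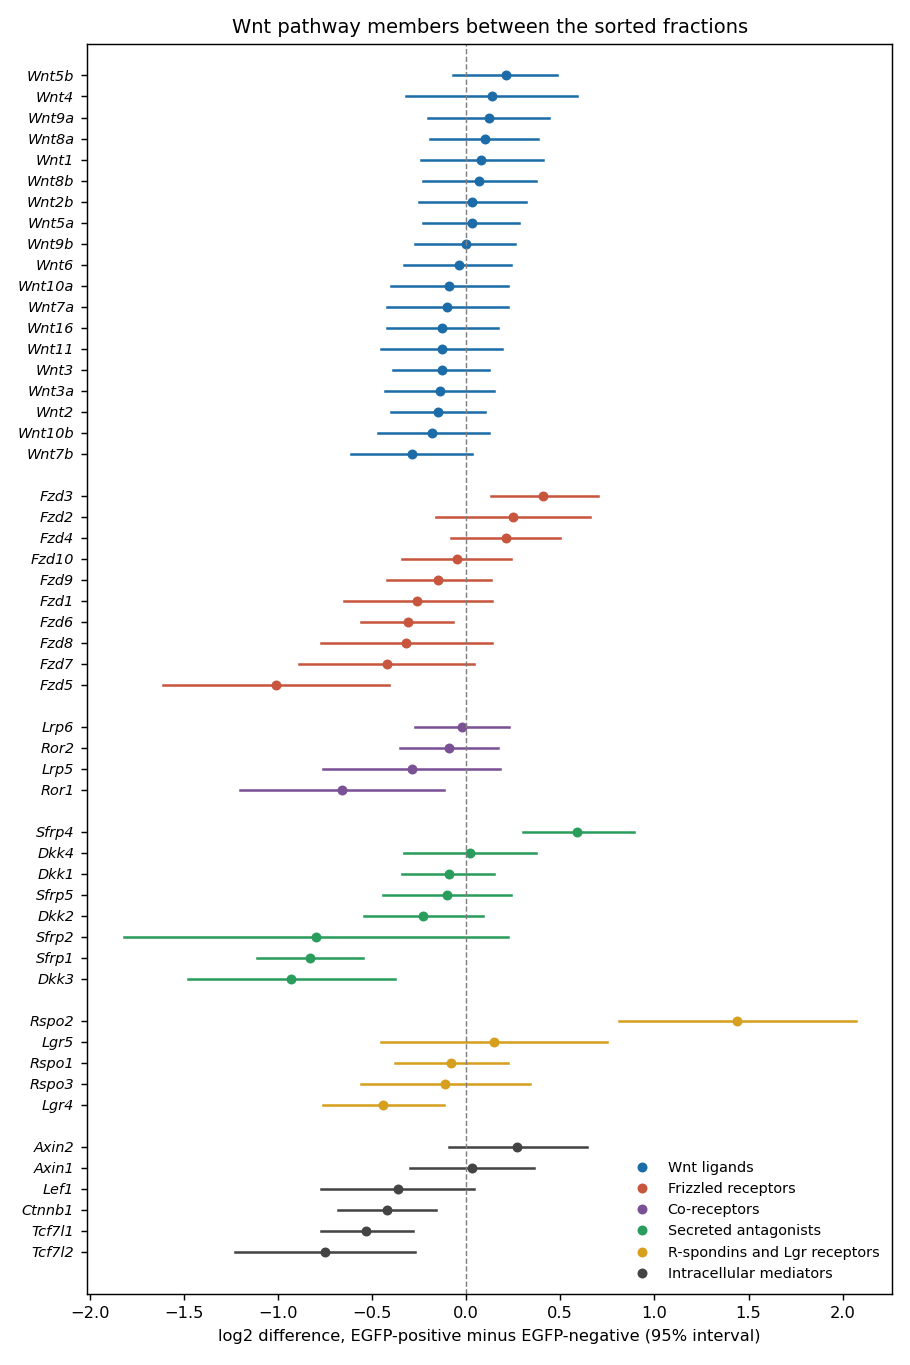
The log2 difference (EGFP-positive minus EGFP-negative) of each of the 52 members is plotted as a point with its 95% interval from limma, in blocks by role. The 19 ligands sit near 0, Rspo2 lies farthest to the right at 1.44, and Fzd5, Dkk3, Sfrp1 and Sfrp2 lie farthest to the left.

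Upstream sequence from RefSeq (build GRCm38.p6) was matched for 34 of the 52 members, as 42 windows of the 250 bases before an annotated start. Rspo2, Dkk3 and Sfrp1 were among the members without a window, so they were not searched. Windows were searched on both strands for TAATCC, the core motif of Crx and Otx2, and for CTTTGA, the core motif of TCF/LEF factors. Neither motif contains the other. TAATCC stood in 4 member windows (9.52%, beside 6.25% of all 32851 windows), those of Fzd1, Sfrp2, Tcf7l2 and Wnt11. CTTTGA stood in 6 (14.3%, beside 13.8%), of Dkk1, Fzd1, Lef1, Ror1, Wnt11 and Wnt5b. The sequences below are those of Fzd5, the member with the largest difference toward the negative fraction, and of the members with a log2 difference below -0.5 whose window holds a motif, which is in capitals, as its reverse complement in each. Fzd5 holds neither motif in chr1:64737751-64738000 (minus strand). The Sfrp2 window is chr3:83766071-83766320 and that of Tcf7l2 chr19:55895071-55895320, before its second annotated start, both on the plus strand. The Ror1 window is chr4:100095541-100095790 on the plus strand. A match is a description of these letters and not a binding site.
Fzd5: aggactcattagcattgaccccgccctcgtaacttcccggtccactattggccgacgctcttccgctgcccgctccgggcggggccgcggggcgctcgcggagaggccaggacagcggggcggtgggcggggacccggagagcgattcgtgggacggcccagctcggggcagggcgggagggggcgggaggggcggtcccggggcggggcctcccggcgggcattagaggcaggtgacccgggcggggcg
Sfrp2: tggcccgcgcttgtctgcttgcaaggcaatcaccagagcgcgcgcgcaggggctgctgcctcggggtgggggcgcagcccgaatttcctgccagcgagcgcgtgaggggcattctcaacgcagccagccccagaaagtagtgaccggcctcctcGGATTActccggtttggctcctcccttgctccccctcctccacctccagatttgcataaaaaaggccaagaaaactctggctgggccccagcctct
Tcf7l2: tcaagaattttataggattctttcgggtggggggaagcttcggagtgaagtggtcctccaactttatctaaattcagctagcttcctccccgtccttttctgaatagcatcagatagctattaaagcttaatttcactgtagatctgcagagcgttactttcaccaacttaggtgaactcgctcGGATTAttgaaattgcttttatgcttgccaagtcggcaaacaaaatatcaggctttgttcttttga
Ror1: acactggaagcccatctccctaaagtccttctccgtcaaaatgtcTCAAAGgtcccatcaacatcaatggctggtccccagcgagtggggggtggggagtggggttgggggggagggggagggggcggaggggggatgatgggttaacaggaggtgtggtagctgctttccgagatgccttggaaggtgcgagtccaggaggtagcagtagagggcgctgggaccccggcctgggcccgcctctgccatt

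The Wnt ligands, secreted lipid-modified proteins that start the pathway, showed the smallest range of differences among the roles with more than 4 members. All 19 had an unadjusted p of at least 0.0649, and their log2 differences lay between -0.29 and 0.21. Their 95% intervals together spanned -0.61 to 0.59. Intensities of the ligands ranged from 80.3 to 382.1 over the arrays, and 15 of the 19 features had a mean below the median of all features, 4 of them below the 25th percentile. Intensities of different probe sets are not comparable as expression levels, and the files hold no detection call, so these values do not say which ligands are expressed.

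Wnt7b, a ligand produced in the developing nervous system, had the largest ligand difference toward the negative fraction. It read 205.5 and 171.6 in EGFP-positive samples, against 230.7 and 229.0 in EGFP-negative ones (-0.29 ± 0.13, limma adjusted p = 0.300). The positive samples lay below both negative ones without overlap. Wnt10b differed by -0.18 ± 0.12 and Wnt2 by -0.15 ± 0.10, also without overlap. With Wnt3 and Wnt3a, 5 of the 19 ligands were lower without overlap (26.3%, beside 25.3% of all features).

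Wnt5b, a ligand of the beta-catenin independent branch, had the largest positive ligand difference, with 270.4 and 300.1 in EGFP-positive samples, against 243.5 and 250.6 in EGFP-negative ones (0.21 ± 0.11, limma adjusted p = 0.395). It was the 1 ligand of 19 whose positive samples were both above the negative ones (5.26%, beside 22.3% of all features). Wnt4 read 272.3 and 382.1 in EGFP-positive samples, against 287.7 and 299.7 in EGFP-negative ones, so that the positive samples stood on either side of the negative ones (0.14 ± 0.18). Its other feature differed by 0.01 ± 0.10. Wnt9a differed by 0.12 ± 0.13 with overlapping fractions.

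Among the 10 Frizzled receptors, seven-pass membrane proteins that bind Wnts, Fzd5 had the largest difference and Fzd3 stood on the opposite side. Fzd5 read 994.9 and 636.5 in EGFP-positive samples, against 1768.0 and 1454.3 in EGFP-negative ones, or 9.64 ± 0.46 and 10.65 ± 0.20 as log2 intensity (SD, n = 2 each). The fractions did not overlap and the positive mean was 2.02-fold lower (log2 difference -1.01 ± 0.24, SE, 95% interval -1.61 to -0.41, limma adjusted p = 0.116). Without positive replicate 1 the difference of Fzd5 was -1.33 ± 0.17, and it was called (adjusted p = 0.0165). Without positive replicate 2 it was -0.69 ± 0.17 and not called (adjusted p = 0.193), nor was it without negative replicate 1 (0.464) or negative replicate 2 (0.301).

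Fzd3, which acts in planar polarity and axon growth, had 2033.3 and 2297.4 in EGFP-positive samples, against 1583.2 and 1662.6 in EGFP-negative ones. Both positive samples were above both negative ones (0.41 ± 0.11, 95% interval 0.13 to 0.70, limma adjusted p = 0.144). Fzd4, the receptor of the vascular ligand norrin, read 218.4 and 239.3 in EGFP-positive samples, against 209.2 and 186.7 in EGFP-negative ones (0.21 ± 0.12, adjusted p = 0.425). Fzd2 differed by 0.25 ± 0.16 with overlapping fractions.

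The remaining Frizzled receptors had differences from -0.05 for Fzd10 to -0.42 for Fzd7. Fzd7 read 343.0 and 252.6 in EGFP-positive samples, against 430.1 and 361.6 in EGFP-negative ones (-0.42 ± 0.18, limma adjusted p = 0.306). Fzd6, named after its values were seen, read 291.6 and 289.1 in EGFP-positive samples, against 367.8 and 354.1 in EGFP-negative ones, with little spread in either fraction (-0.31 ± 0.10, adjusted p = 0.179). Fzd8 overlapped, with 240.3 and 174.8 in EGFP-positive samples, against 272.3 and 239.5 in EGFP-negative ones (-0.32 ± 0.18, adjusted p = 0.438). Of the Frizzled features 7 of 10 read lower on the replicate 2 array of both fractions, beside 7257 of all 22431 features. Fzd5, Fzd7 and Fzd8 were among the 7.

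Of the 4 co-receptors, Ror1 and Ror2 had no overlap between the fractions, both lower in the positive one, as were 25.3% of all features. Lrp6, which pairs with Frizzled in the canonical branch, read 1010.3 and 1074.8 in EGFP-positive samples, against 1064.0 and 1050.0 in EGFP-negative ones (-0.02 ± 0.10, 95% interval -0.27 to 0.23). Centred on array medians the Lrp6 difference was 0.004. Lrp5, its paralogue, read 866.8 and 729.3 in EGFP-positive samples, against 1135.4 and 834.0 in EGFP-negative ones, with overlap (-0.29 ± 0.18, limma adjusted p = 0.496).

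Ror1, a receptor tyrosine kinase that binds Wnt5a, had 460.1 and 336.4 in EGFP-positive samples, against 719.5 and 537.6 in EGFP-negative ones. The fractions did not overlap (-0.66 ± 0.21, 95% interval -1.20 to -0.12, limma adjusted p = 0.190). Its paralogue Ror2 read 211.9 and 207.8 in EGFP-positive samples, against 231.5 and 215.5 in EGFP-negative ones (-0.09 ± 0.10, adjusted p = 0.743). Whether Ror1 and Ror2, or Lrp5 and Lrp6, differ from each other in response was not tested.

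**Figure D2:**
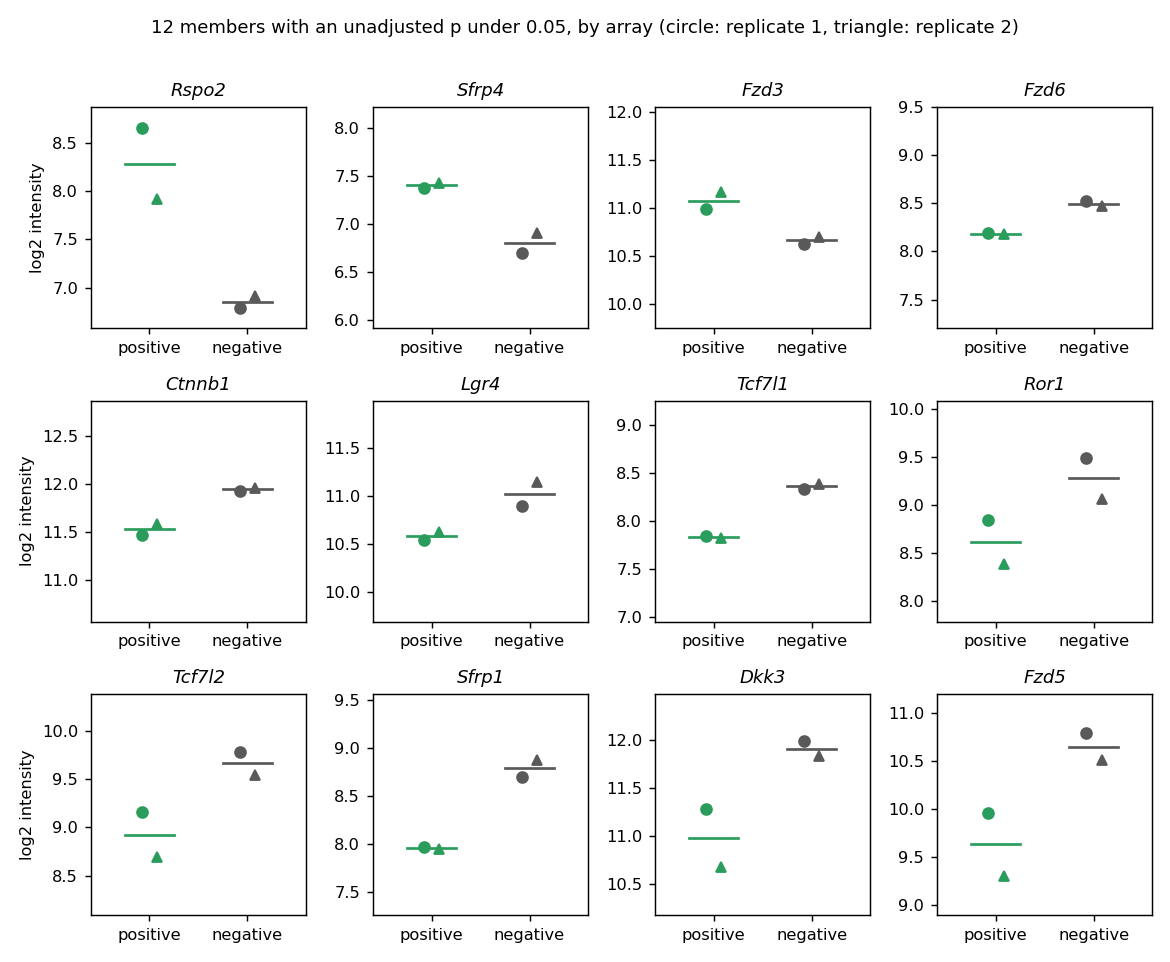
Log2 intensity is plotted for each array for the 12 members with an unadjusted p under 0.05, with EGFP-positive samples left (green) and EGFP-negative samples right (grey), bars at the means of 2 arrays, and axes that span the same range of log2 units. Rspo2, Sfrp4 and Fzd3 are higher and the other 9 lower in the positive samples, without overlap in any panel.

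The secreted antagonists held the largest differences toward the negative fraction after Fzd5, in Dkk3, Sfrp1 and Sfrp2. Sfrp1, which binds Wnts through a Frizzled-like domain, read 251.5 and 247.5 in EGFP-positive samples, against 416.3 and 471.7 in EGFP-negative ones, or 7.96 ± 0.02 and 8.79 ± 0.13 as log2 intensity. The positive samples lay close together and below both negative ones (-0.83 ± 0.11, 95% interval -1.11 to -0.55, limma adjusted p = 0.0516). Sfrp1 was called when each gene entered as the mean of its features, a fit over fewer tests with the same difference (adjusted p = 0.0420), and without positive replicate 1 (adjusted p = 0.0384). It was not called without positive replicate 2 (0.115), negative replicate 1 (0.265) or negative replicate 2 (0.293).

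Dkk3, a divergent member of the Dickkopf family that is expressed in retinal progenitors, read 2492.8 and 1628.3 in EGFP-positive samples, against 4048.0 and 3645.7 in EGFP-negative ones. All positive readings were below the negative ones, and positive replicate 2 was the lowest (-0.93 ± 0.22, 95% interval -1.48 to -0.38, limma adjusted p = 0.115). Without positive replicate 1 the Dkk3 difference was -1.24 ± 0.15, and it was called (adjusted p = 0.0139). Without positive replicate 2 it was -0.62 ± 0.15 and not called (0.180), nor was it without negative replicate 1 (0.457) or negative replicate 2 (0.303).

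Sfrp2 read 1287.9 and 2048.0 in EGFP-positive samples, against 1942.6 and 4107.7 in EGFP-negative ones. Replicate 2 was higher than replicate 1 in both fractions, so the fractions overlapped although the positive sample was lower within each replicate number (-0.80 ± 0.40, 95% interval -1.82 to 0.22, limma adjusted p = 0.377). With the replicate number as a block, the Sfrp2 difference was -0.80 ± 0.13 (limma adjusted p = 0.0174). The labels do not say that this number marks a shared sort. Leaving out 1 array at a time gave Sfrp2 differences from -1.34 (negative replicate 1 left out) to -0.26 (negative replicate 2 left out), none of them called. The ganglion cell markers were also higher in replicate 2, 8 of 9 of them in both fractions, beside 6506 of all 22431 features. They summed to 3834 and 6879 in EGFP-positive samples, against 3090 and 7905 in EGFP-negative ones. Their part in the Sfrp2 values was not tested.

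Sfrp4 was the 1 antagonist of 8 with a positive difference and no overlap (12.5%, beside 22.3% of all features). Another 4 of the 8 were lower without overlap (50%, beside 25.3%). Sfrp4 read 166.2 and 172.2 in EGFP-positive samples, against 104.3 and 120.5 in EGFP-negative ones (0.59 ± 0.12, 95% interval 0.30 to 0.89, limma adjusted p = 0.0885). Dkk4 differed by 0.02 ± 0.14. The other antagonists, among them Dkk1, the classic inhibitor of Lrp6, had differences from -0.23 for Dkk2 to -0.09 for Dkk1, with adjusted p from 0.423 to 0.785.

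Rspo2 had the largest difference of all members. R-spondins are secreted proteins that strengthen Wnt responses through Lgr receptors. Rspo2 read 403.8 and 242.7 in EGFP-positive samples, against 110.4 and 120.0 in EGFP-negative ones, or 8.29 ± 0.52 and 6.85 ± 0.09 as log2 intensity. Both positive samples were above both negative ones, with positive replicate 1 the highest, and the mean was 2.72-fold higher (1.44 ± 0.25, 95% interval 0.81 to 2.07, limma adjusted p = 0.0785). The difference of Rspo2 was 1.08 ± 0.15 without positive replicate 1 (adjusted p = 0.0188) and 1.81 ± 0.15 without positive replicate 2 (adjusted p = 0.00870), and it was called in both. It was not called without negative replicate 1 (adjusted p = 0.367) or negative replicate 2 (adjusted p = 0.301). The summed markers of photoreceptor precursors and of amacrine and horizontal cells were higher in the positive samples too. Both sums were higher in positive replicate 2 than in replicate 1 (25378 against 21142, and 8245 against 6278), whereas Rspo2 was higher in positive replicate 1. The part of these markers in the Rspo2 values was not tested.

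The other R-spondins had intervals that include 0. Rspo1 read 137.9 and 159.8 in EGFP-positive samples, against 161.6 and 152.3 in EGFP-negative ones (-0.08 ± 0.12, 95% interval -0.38 to 0.22). Rspo3 read 75.3 and 73.6 in EGFP-positive samples, against 94.9 and 67.9 in EGFP-negative ones (-0.11 ± 0.18, 95% interval -0.56 to 0.34), and its feature lay at the 14.9th percentile of mean intensity. Whether Rspo2 differs from these paralogues in response was not tested.

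Lgr4, the R-spondin receptor with the broader expression, had 1488.0 and 1590.1 in EGFP-positive samples, against 1915.2 and 2272.9 in EGFP-negative ones. The positive samples were both below the negative ones (-0.44 ± 0.13, 95% interval -0.76 to -0.12, limma adjusted p = 0.157). Lgr5, a marker of stem cells in several epithelia, overlapped, with 162.2 and 187.5 in EGFP-positive samples, against 124.3 and 197.9 in EGFP-negative ones (0.15 ± 0.24).

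Of the intracellular mediators, 4 of 6 were lower in both positive samples than in both negative ones, as were 25.3% of all features. Ctnnb1, which encodes beta-catenin and also serves cell adhesion, read 2844.3 and 3068.0 in EGFP-positive samples, against 3887.9 and 3994.2 in EGFP-negative ones (-0.42 ± 0.10, 95% interval -0.68 to -0.16, limma adjusted p = 0.126). Tcf7l1, a TCF factor that mostly represses, read 231.2 and 226.1 in EGFP-positive samples, against 323.7 and 334.6 in EGFP-negative ones, with little spread in either fraction (-0.53 ± 0.10, 95% interval -0.77 to -0.28, adjusted p = 0.0850).

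Tcf7l2 had 570.3 and 411.8 in EGFP-positive samples, against 886.6 and 749.3 in EGFP-negative ones (-0.75 ± 0.19, 95% interval -1.23 to -0.27, limma adjusted p = 0.130). Positive replicate 2 was the lowest sample, and without positive replicate 1 the Tcf7l2 difference was -0.98 ± 0.17 and called (adjusted p = 0.0308). Without positive replicate 2 it was -0.52 ± 0.17 and not called (0.275), nor was it without negative replicate 1 (0.492) or negative replicate 2 (0.301). Lef1 read 198.9 and 170.7 in EGFP-positive samples, against 267.6 and 209.8 in EGFP-negative ones (-0.36 ± 0.16, adjusted p = 0.312).

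Axin2, a scaffold of the destruction complex and a common readout of beta-catenin signalling, had a positive difference. It read 264.8 and 263.1 in EGFP-positive samples, against 246.0 and 193.6 in EGFP-negative ones (0.27 ± 0.14, 95% interval -0.09 to 0.64, limma adjusted p = 0.395). The positive samples were above the negative ones, of which negative replicate 2 was the lowest. Axin1 read 646.4 and 567.0 in EGFP-positive samples, against 639.5 and 549.7 in EGFP-negative ones (0.03 ± 0.13).

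**Figure D3:**
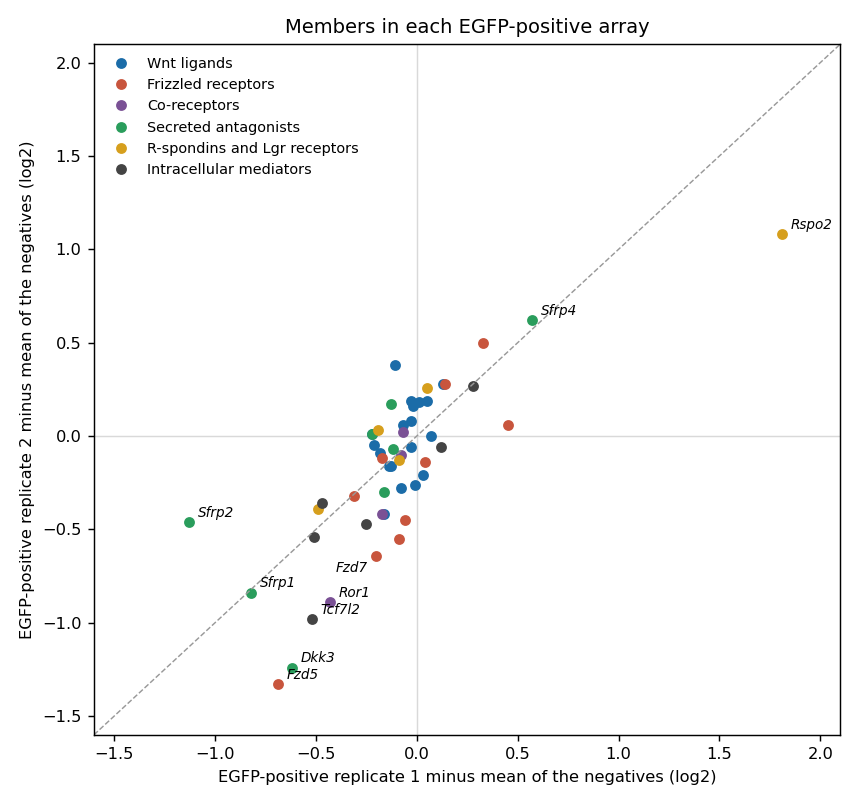
Each point is 1 member, with its log2 difference from the mean of the negative samples in EGFP-positive replicate 1 (x axis) and replicate 2 (y axis), colored by role, and the dashed line marks equal differences. Both axes share the negative samples. Fzd5, Dkk3, Tcf7l2 and Ror1 lie below the line, Sfrp1 near it, and Rspo2 and Sfrp2 have their larger difference in replicate 1.

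The positive samples gave differences of unlike size for several members. Against the mean of the negative samples, Fzd5 differed by -0.69 in positive replicate 1 and -1.33 in replicate 2, Dkk3 by -0.62 and -1.24, and Tcf7l2 by -0.52 and -0.98. Of the other members lower at an unadjusted limma p under 0.05, Ror1 differed by -0.43 and -0.89, and Fzd6 by -0.31 and -0.32. Ctnnb1 (-0.47 and -0.36) and Lgr4 (-0.49 and -0.39) lay farther below the negative mean in replicate 1. Among the progenitor markers, the median difference from the mean of the negative samples was -0.53 in positive replicate 1 and -1.17 in replicate 2. Of these markers 8 of 9 were lower in replicate 2 of both fractions, beside 7257 of all 22431 features. Their part in the member differences was not tested. For Sfrp1 the differences were -0.82 and -0.84, and for Tcf7l1 -0.51 and -0.54.

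Further genes of the pathway were described in 5 lists. These were chosen with earlier results of these data known, so their shares are descriptions and not tests. Of 34 cytoplasmic and nuclear genes of the beta-catenin pathway, none was called by limma. At an unadjusted p under 0.05, 12 were higher and 2 lower (35.3% and 5.88%, beside 9.34% and 9.83% of all features). The median log2 difference was 0.15. In this list 2 of 34 features had a mean below the median intensity of all features, against 11215 of all 22431. The background is therefore not matched in intensity. Gsk3b, the kinase that marks beta-catenin for destruction, read 3460.0 and 4003.5 in EGFP-positive samples, against 2375.5 and 2548.2 in EGFP-negative ones (0.60 ± 0.12, limma adjusted p = 0.0907). Apc2, a neuronal relative of the tumour suppressor Apc, read 1563.9 and 1829.5 in EGFP-positive samples, against 799.0 and 1161.6 in EGFP-negative ones (0.81 ± 0.20, adjusted p = 0.130). Both genes had no overlap between the fractions.

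In the planar cell polarity and beta-catenin independent list, 1 of 21 genes was called, Prickle2, which encodes a cytoplasmic polarity protein. It read 254.6 and 285.1 in EGFP-positive samples, against 135.4 and 147.1 in EGFP-negative ones and was 1.91-fold higher (0.93 ± 0.11, limma adjusted p = 0.0434). Over this list the median was 0.02, with 4 genes higher (19.0%) and 1 lower (4.76%) at an unadjusted p under 0.05, beside 9.34% and 9.83% of all features. The call of Prickle2 was lost with an offset of 50 before log2 (adjusted p = 0.0631) and without positive replicate 2 (log2 difference 0.85). It was also lost without either negative sample, as were the calls of all other features.

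Genes of Wnt secretion and extracellular modification had a median of -0.09 over 19 genes, with none called by limma and 0 higher and 3 lower (15.8%, beside 9.83% of all features) at an unadjusted p under 0.05. Gpc3, a membrane proteoglycan that binds Wnts, read 329.6 and 182.5 in EGFP-positive samples, against 693.4 and 375.4 in EGFP-negative ones, with the lower value in replicate 2 of both fractions and no overlap (-1.06 ± 0.39, adjusted p = 0.235). Its relative Gpc4 differed by -0.50 ± 0.13 (adjusted p = 0.143).

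Of 16 genes often used as readouts of beta-catenin signalling, 3 of them members, none was called by limma. At an unadjusted p under 0.05, 0 were higher and 3 lower (18.8%, beside 9.83% of all features), and the median was -0.13. Several readouts also stand in the other lists. Bambi (-0.40 ± 0.11) is among the 3 lower genes both here and in the list of secretion and extracellular modification. Id2, an inhibitor of bHLH factors, read 1401.4 and 760.0 in EGFP-positive samples, against 2222.3 and 2234.0 in EGFP-negative ones (-1.11 ± 0.29, limma adjusted p = 0.135). Ccnd1, the cyclin of progenitor division that also stands in the progenitor list, read 6046.0 and 3384.2 in EGFP-positive samples, against 9462.8 and 8734.1 in EGFP-negative ones (-1.01 ± 0.28, adjusted p = 0.148). Without positive replicate 1 both were called, at -1.55 for Id2 (adjusted p = 0.00723) and -1.43 for Ccnd1 (adjusted p = 0.00990). Without positive replicate 2 neither was called, at -0.67 for Id2 (0.141) and -0.59 for Ccnd1 (0.189), nor without either negative sample (adjusted p from 0.349 to 0.504).

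Of 14 ciliary margin genes, none was called by limma, 0 were higher and 2 lower (14.3%, beside 9.83% of all features) at an unadjusted p under 0.05, and the median was -0.08. The collagen gene Col9a1 read 767.9 and 427.9 in EGFP-positive samples, against 1672.7 and 1421.6 in EGFP-negative ones (-1.43 ± 0.29, limma adjusted p = 0.0904). Without positive replicate 1 Col9a1 was called (adjusted p = 0.00687), and without positive replicate 2 (0.0801), negative replicate 1 (0.405) or negative replicate 2 (0.301) it was not. Zic1, a zinc finger factor, read 392.0 and 418.6 in EGFP-positive samples, against 575.1 and 664.3 in EGFP-negative ones (-0.61 ± 0.12, adjusted p = 0.0881).

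**Figure D4:**
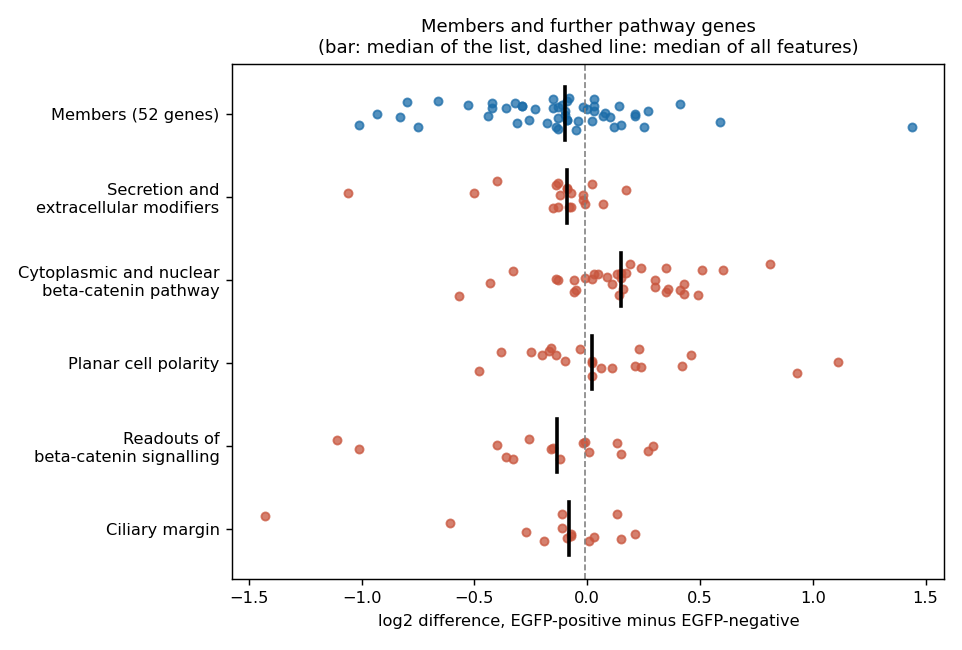
Each point is the log2 difference (EGFP-positive minus EGFP-negative) of 1 gene, for the 52 members and 5 further lists, with a bar at each list's median and a dashed line at the median of all features. The cytoplasmic and nuclear list has its median at 0.15, and those of the members and of the readouts lie at -0.10 and -0.13. Genes that stand in several lists, such as members that are also readouts, appear in each of those rows.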

How the data were processed

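Total RNA (100 ng per sample) of sorted cells was amplified with a whole-transcript kit and labelled with biotin, per the labels' protocols. The authors deposited intensity values for each array, made with RMA on build mm8 per the submitters' processing notes. For the version of RMA and any filter, no source used here gives details. The values ran from 18.9 to 36625.2, so the linear scale was inferred, and log2 was taken without an offset. Array medians were 218.4 to 222.9. Of 22431 features, 20176 had 1 gene symbol, 412 several and 1843 none.

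The model (limma 3.58.1, R 4.3.3, lmFit, then eBayes with no trend) took all features on 4 arrays, EGFP-positive minus EGFP-negative, with two-sided p-values adjusted by Benjamini-Hochberg over all features and a threshold of 0.05. Precision is limited by the number of arrays, with a median SE of 0.12 and no called difference under 0.75 in size. The fit was tested on simulated data.

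Described in full were called members, the 3 largest differences in each direction among ligands, Frizzled receptors and antagonists, every member of the other roles, up to 4 called genes of each further list or else its 2 largest, and Crx. The members and lists were chosen with earlier results of these data known. Alternatives covered scaling, offset, filter, variance model, feature choice, a replicate block and each array left out. Symbols of all 52 members matched RefSeq by Entrez number. Some genes of the lists, among them Vangl1, Dlg1 and Aes, are not reported here.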

Additional observations from a re-analysis of the deposited data

How the results depend on the processing

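No member was called with each array centred on its median, quantile normalisation repeated, an offset of 50, dim features left out, or a trend in eBayes (plain or robust), and the counts at an unadjusted p under 0.05 stayed at 3 higher and 9 lower in all of these (47 members when dim features were left out). The member median was -0.08 when centred, -0.10 when quantile normalised again and -0.07 with the offset. Features called lower numbered 17 with the offset, 21 with a trend and 51 with genes as means of their features, against 32, and the last fit called 1 member lower, Sfrp1. The cause was not tested, except that the last fit holds fewer tests. Lrp6 had a difference of 0.004 when centred.

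Leaving out 1 array in turn gave 0 to 667 features called higher and 0 to 762 lower, 0 to 1 member called higher and 0 to 4 lower, 3 to 4 members higher and 7 to 12 lower at an unadjusted p under 0.05, and a member median from -0.13 to -0.07. The log2 difference changed sign for 17 of the 52 members, of which 10 (8 ligands, Fzd10 and Sfrp5) had differences of at most 0.22 in size in these fits. The other 7 were Lrp6 (-0.07 to 0.02), Axin1 (-0.08 to 0.14), Rspo1 (-0.19 to 0.03), Rspo3 (-0.35 to 0.13), Lgr5 (-0.18 to 0.49), Wnt4 (-0.11 to 0.38) and Dkk4 (-0.13 to 0.17). An array left alone in its fraction is assumed to vary like the other fraction.

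The labels do not say that a replicate number marks a shared sort, and deviations of same-numbered arrays from their fraction means correlated at 0.48 over features. With the replicate number as a block, limma called 1377 of all 22431 features higher and 1500 lower. Of the 52 members, it called 3 higher (Rspo2, Sfrp4 and Fzd3) and 9 lower (Fzd5, Dkk3, Sfrp1, Sfrp2, Tcf7l2, Tcf7l1, Ror1, Lgr4 and Ctnnb1). At an unadjusted p under 0.05, 3 members were higher and 15 members were lower in the block fit. The unadjusted counts over all features are not given for the block fit, so these member counts have no background beside them. With 2 arrays per fraction, the intervals of uncalled members are wide, and the dimmest features may not show a difference.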
